A study of Mus musculus with 3 samples.

Results

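Ccl3, Ccl4 and Ccl5, which encode CC chemokines, and Ccr1 and Ccrl2, which encode receptors, were followed through leukocytes sorted from naive and transplanted mouse lungs. The 5 genes were matched by symbol among the 32285 genes of each library's feature list, and all 5 were present in all 3 libraries. Chemokines are small secreted proteins that direct leukocytes along their gradients by way of G protein-coupled receptors. CCL3 and CCL4, also called macrophage inflammatory proteins 1α and 1β, are made within hours by stimulated myeloid and lymphoid cells, and CCL5, also called RANTES, is held ready as RNA in NK cells and memory CD8+ T cells. CCR1 is a signalling receptor for CCL3 and CCL5 on neutrophils and monocytes, and CCRL2 is an atypical receptor that binds chemerin and does not signal through G proteins.

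The question put to these data was in which cells the ligands and receptors were transcribed, and how their levels compared between lungs before and after ischemia and reperfusion. Left lungs of C57BL/6J mice were transplanted from CD45.2 donors into CD45.1 recipients after 60 minutes of storage at 4°C and a further 45 minutes at 28°C. The study's methods list its CD45.1 mice as the strain B6.SJL-Ptprca Pepcb/BoyJ, and call the naive mouse B6. Grafts were harvested after 2 hours of reperfusion (WT2H) or after 3 days (WT3D), and left lungs of C57BL/6J mice that had no surgery gave the naive library. Each condition was a single single-cell RNA-Seq library of cells pooled from 2 mice and sorted for CD45.1, the recipient allele. The series' design text gives that sort for the naive lungs as well, which held no recipient cells. The study's methods describe young adult animals of both sexes, and the labels do not say which sex went into each library.

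The files held 2921, 10328 and 9016 cell barcodes for naive lungs, 2 hours and 3 days, of which 2422, 10283 and 8324 passed the filters of the study's methods. Median depth was 7298, 878 and 5716 unique molecular identifiers (UMIs, counted RNA molecules) per kept cell, so the 2-hour library was the shallowest by far. The naive and 2-hour libraries shared 8 barcodes, the naive and 3-day libraries 1, and the 2-hour and 3-day libraries 23. Most clusters came almost entirely from 1 library, and apart from classical monocyte-like cells each of the 6 lineages was mostly made of different clusters in each library. Cells were clustered without the 5 genes and named from marker genes, with 387, 4389 and 2260 neutrophil-like cells, 140, 453 and 1260 monocyte-like cells, 107, 7 and 800 macrophage-like cells, 516, 852 and 345 NK-like cells, 577, 2679 and 988 T-like cells and 552, 1404 and 1861 B-like cells in naive lungs, at 2 hours and at 3 days. The 7 macrophage-like cells at 2 hours were too few to compare. An endothelial-like cluster of 89, 37 and 171 cells was present despite the sort.

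Levels are UMIs of a gene per 1000000 UMIs of the same cells (CPM), with an exact 95% Poisson interval in parentheses. Log2 ratios between libraries carry an exact 95% interval conditional on the total count. Both intervals cover counting error only, and with 1 library per condition no test and no p-value was possible. A gene was counted as higher where log2(CPM + 10) differed by at least 1, which is 2-fold, and the share of all genes that passed the same rule in the same comparison is given beside each count. Free RNA from lysed cells can reach every droplet. The defining neutrophil markers S100a8, S100a9, Csf3r and Retnlg together stood at 214, 2038 and 1037 CPM in B-like cells from naive lungs, 2 hours and 3 days, and B-like cells serve below as the lineage that should lack most of the 5 genes.

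Ccl3 (ENSMUSG00000000982) lies on the minus strand at chr11:83647844-83649355 and Ccl4 (ENSMUSG00000018930) on the plus strand at chr11:83662584-83664683, 13.2 kb apart with 0 annotated genes between them. Ccl5 (ENSMUSG00000035042) lies on the minus strand at chr11:83525778-83530518, 117.3 kb from Ccl3 with 4 genes between, among them the CC chemokine genes Ccl9 and Ccl6. Ccr1 (ENSMUSG00000025804, chr9:123962124-123968692) and Ccrl2 (ENSMUSG00000043953, chr9:111054486-111057519) are both on the minus strand. All positions are in GENCODE vM21 on GRCm38, the assembly also called mm10 in the submitters' processing notes, and none of the 5 genes overlapped another annotated gene. To show the sequence from which these RNAs start, the RefSeq promoter windows of Ccl3, Ccr1 and Ccrl2, the 3 of the 5 genes matched in the promoter table, are printed, from 250 bases before to 50 bases after an annotated start site, on the minus strand of GRCm38.p6. The windows are chr11:83649329-83649628 for Ccl3, chr9:123968643-123968942 for Ccr1 and chr9:111057469-111057768 for the outermost of 3 start sites of Ccrl2, and capitals mark a match to one of the motifs searched.
Ccl3: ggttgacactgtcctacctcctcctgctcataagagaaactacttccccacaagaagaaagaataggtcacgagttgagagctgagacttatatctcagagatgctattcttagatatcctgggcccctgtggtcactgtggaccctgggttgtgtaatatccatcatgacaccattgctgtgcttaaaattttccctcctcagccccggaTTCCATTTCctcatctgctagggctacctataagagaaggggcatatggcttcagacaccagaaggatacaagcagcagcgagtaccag
Ccr1: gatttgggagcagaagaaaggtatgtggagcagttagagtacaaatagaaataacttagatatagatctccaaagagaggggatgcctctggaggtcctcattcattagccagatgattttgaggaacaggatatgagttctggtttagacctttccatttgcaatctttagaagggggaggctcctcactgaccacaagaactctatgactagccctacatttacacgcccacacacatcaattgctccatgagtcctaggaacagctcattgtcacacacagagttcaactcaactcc
Ccrl2: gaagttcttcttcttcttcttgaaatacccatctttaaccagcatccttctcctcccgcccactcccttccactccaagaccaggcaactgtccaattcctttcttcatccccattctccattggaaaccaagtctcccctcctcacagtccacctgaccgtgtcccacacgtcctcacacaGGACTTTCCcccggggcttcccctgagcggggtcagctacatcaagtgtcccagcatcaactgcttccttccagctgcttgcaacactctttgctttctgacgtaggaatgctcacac

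Both strands were searched for GGANTTTCC, a κB-like motif, for TGANTCA, an AP-1-like motif, and for GAAANNGAA, an IRF-like motif. The printed Ccrl2 window held GGACTTTCC starting at position -68 relative to the start site, and 1.25% of 32851 windows of the same length held the κB-like motif. The windows of the other Ccrl2 start sites were searched too and held 0 matches to any motif. The Ccl3 window held the IRF-like motif on the opposite strand, as TTCCATTTC from position -39, a motif in 8.56% of all windows. The AP-1-like motif, in 7.81% of all windows, matched in none of these windows, and the Ccr1 window held none of the 3. A match describes the letters of a window and not the binding of a factor. The 2 matches did not overlap another motif.

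In neutrophil-like cells, 3 of the 5 genes, Ccl3, Ccl4 and Ccrl2, were at least 2-fold higher at 2 hours than in naive lungs, where 3.99% of all genes tested were. Against 3 days, 2 of the 5, Ccl4 and Ccrl2, were at least 2-fold higher at 2 hours (2.39% of all genes), and Ccl4 alone was at least 2-fold higher at 3 days than in naive lungs (1.98%). That last call depended on the settings. Over the alternative settings the log2 ratio of 3 days to naive ran from 0.42 to 3.20 for Ccl4, 1.36 as clustered here. For Ccl3, 0.78 here, it ran from -0.60 to 2.08, and for Ccrl2, 0.34 here, from -0.25 to 1.54. In bulk sums of this kind, more RNA per cell and more cells with the RNA cannot be told apart, and the share of cells with a UMI is therefore given beside the level. The median log2 ratio of genes with at least 20 UMIs in each sum was -0.29 at 2 hours over naive lungs and -0.19 at 2 hours over 3 days.

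Ratios to naive lungs also depended on gene structure, and the naive library was counted with another version of the software. In neutrophil-like cells at 2 hours over naive lungs, genes with under 5 kb of intronic sequence had a median log2 ratio of 0.12 and genes with over 100 kb one of -1.28. At 2 hours over 3 days the same medians were -0.19 and -0.15, nearly level. The 5 genes carry between 436 and 3781 intronic bases and belong to the short group. The shares of all genes given beside the counts were not limited to that group. In NK-like cells the short group stood at 0.52, in monocyte-like cells at 0.35, in T-like cells at 0.35 and in B-like cells at 0.53 at 2 hours over naive lungs. Macrophage-like cells at 3 days over naive lungs had -0.005 for it. A difference from naive lungs of that size cannot be told apart from the counting.

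**Figure D1:**
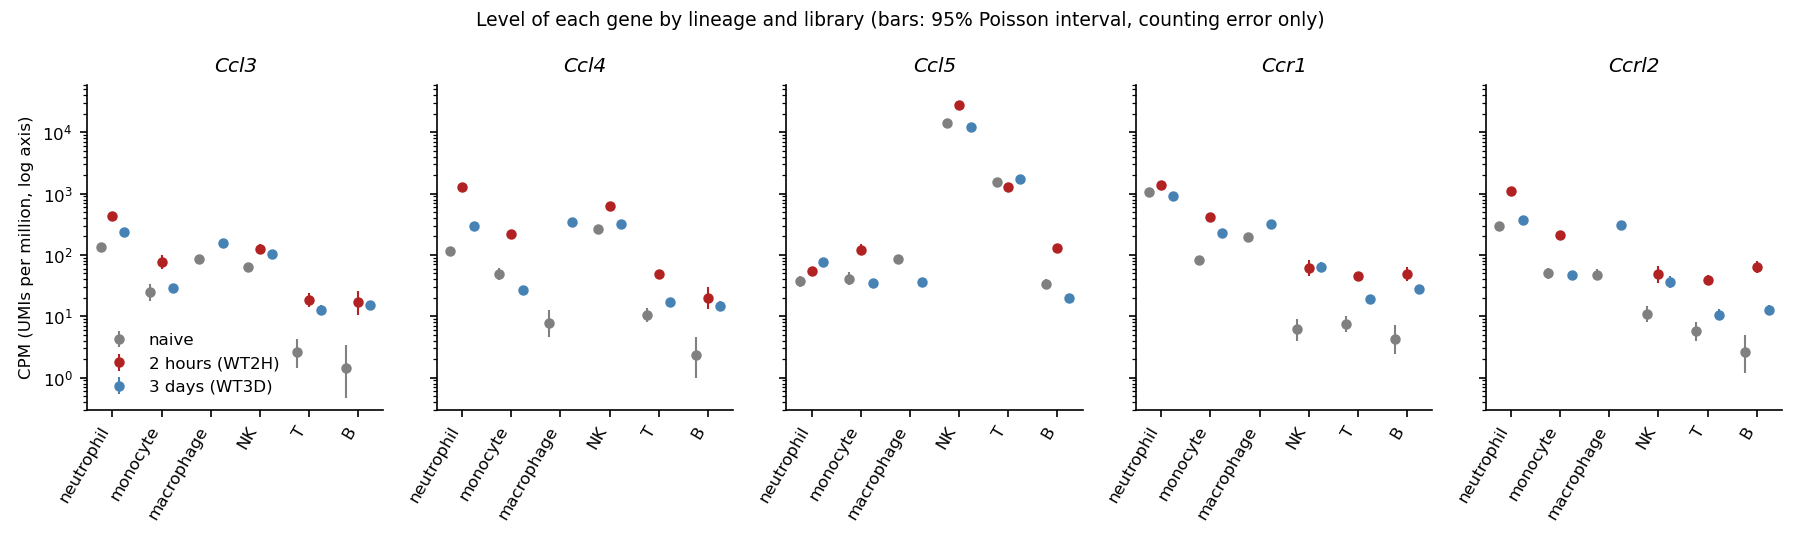
Levels of the 5 genes, as CPM on a log axis, in each lineage (x axis) of the naive (gray), 2-hour (red) and 3-day (blue) libraries, with 95% Poisson intervals for counting error. As clustered here, Ccl3, Ccl4, Ccr1 and Ccrl2 were highest in the neutrophil-like cells of the 2-hour library among the lineages shown, and Ccl5 in NK-like cells of every library. For Ccl3 the order of the 2-hour and 3-day neutrophil-like cells changed under other settings.

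In the neutrophil-like cells as clustered here, Ccl4 had the largest ratios of the 5 genes, although that of Ccrl2 to 3 days was larger with cells called one by one, with or without the cell filter, and with the 5 genes left in the clustering. Its level was 115 (102 to 130.3) CPM in naive lungs, 1275 (1239.9 to 1312) at 2 hours and 296 (286 to 306) at 3 days. The 2-hour level was thus 11.1-fold the naive one, a log2 ratio of 3.47 (3.29 to 3.65). It was also 4.31-fold the 3-day level, a log2 ratio of 2.11 (2.04 to 2.17). The 3 intervals did not overlap, with the 2-hour library highest and the naive library lowest. Over the alternative settings, the first ratio ran from 1.12 to 4.56 and the second from 0.56 to 3.05, positive in all of them. The lowest value of each came with the 5 genes left in the clustering, when 1180 of the 2-hour cells were named neutrophil-like.

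Ccl4 RNA was found in a minority of neutrophil-like cells. With every cell thinned to 500 UMIs, 17.2% (16.1 to 18.4) of neutrophil-like cells had a Ccl4 UMI at 2 hours, against 3.62% (1.99 to 6.00) in naive lungs and 4.96% (4.10 to 5.93) at 3 days. In B-like cells of the same libraries the shares were 0.669%, 0 of 552 cells, which allows a share of up to 0.543% taken as 3 cells, and 0.591%. Thinning left out 0, 340 and 0 neutrophil-like cells below that depth from naive lungs, 2 hours and 3 days. Without thinning, at median depths of 751, 5575 and 4446 UMIs, the neutrophil-like shares were 19.9%, 10.6% and 14.3%. The UMIs were also concentrated, since the top 5% of neutrophil-like cells held 63.9% of all Ccl4 UMIs of these cells at 2 hours, 91.1% in naive lungs and 91.0% at 3 days. These shares of UMIs were taken without thinning.

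Ccl3 had a lower CPM than Ccl4 in the 2-hour neutrophil-like cells and differed less between libraries. It stood at 136 (121 to 152) CPM in naive lungs, 436 (415 to 457) at 2 hours and 234 (225 to 243) at 3 days. The log2 ratio of 2 hours to naive was 1.68 (1.5 to 1.86), a 3.20-fold difference. In the naive library, 9 of the 387 neutrophil-like cells lay outside the main naive cluster and held 89 of the 306 Ccl3 UMIs. The highest single neutrophil-like cell of that library held 82 Ccl3 UMIs, a clumping that the Poisson interval does not cover. Without the cells outside main clusters, a comparison added after seeing the data, the log2 ratio was 2.12. When the 5 genes were left in the clustering, the ratio in the 1180 cells still named neutrophil-like turned to -0.37.

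The order of Ccl3 between 2 hours and 3 days depended on a small group of cells. Among the cells named neutrophil-like, Ccl3 at 2 hours over 3 days had a log2 ratio of 0.90 (0.81 to 0.99). The 3-day library also held a cluster of 154 cells that stayed unnamed. Its list of best fit was that of neutrophils, with 4 of 9 markers past 2-fold but a median log2 ratio of 0.58, under the 1 required, and its leading genes were Tnf, the tumor necrosis factor gene, and Siglecf, which encodes a sialic acid-binding lectin. Its Ccl3 level was 4895 (4731 to 5064) CPM. Counted as neutrophil-like, a choice added after seeing the data, these cells raised the 3-day level of Ccl3 to 510.4 CPM, above the 2-hour level, and the log2 ratio became -0.23. Cells called one by one gave -0.37 and a cluster resolution of 0.4 gave -0.23, so no direction is given for Ccl3 between these 2 libraries.

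The unnamed 3-day cluster had the highest Ccl3 level of any cluster. Its Ccl4 level was 3796 (3652 to 3945) CPM and its Ccrl2 level 3196 (3064 to 3333) CPM, while Ccr1 stood at 692 (631 to 757) CPM and Ccl5 at 17.5 (9.05 to 30.6). Against the neutrophil-like cells of the same library, the log2 ratio was 4.39 (4.31 to 4.46) for Ccl3, 3.68 (3.61 to 3.76) for Ccl4 and 3.10 (3.02 to 3.17) for Ccrl2, and it was -0.42 (-0.56 to -0.29) for Ccr1. Of the neutrophil markers, Csf3r (the G-CSF receptor) was at 1143 CPM there, 2538 in neutrophil-like cells and 108 in all other cells. Mmp9 was at 1821 CPM there, 1294 in neutrophil-like cells and 27.1 in all other cells, and Il1r2 at 1907, 2116 and 97.0. S100a8, S100a9, Cxcr2 and Hdc lay between the levels of neutrophil-like cells and of all other cells. Retnlg, in contrast, was at 97.8 CPM against 7460.1 in neutrophil-like cells, and Mmp8 at 5.84 against 379. Siglecf was at 396 CPM against 19.3. At 500 UMIs per cell, 59.7% (51.5 to 67.6) of these cells had a Ccl3 UMI and 67.5% (59.5 to 74.8) a Ccrl2 UMI.

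At 2 hours the neutrophil-like cells formed 2 clusters that differed in the ligands. One, of 2319 cells, was led by Cxcl3 and Il1rn, and the other, of 2068 cells, by Ngp and Camp, which encode granule proteins of young neutrophils. Ccl3 was at 667 (633 to 702) CPM in the former and 135 (118 to 154) in the latter, a log2 ratio of 2.30 (2.10 to 2.51). For Ccl4 the levels were 1763 (1708 to 1819.8) and 641 (603 to 681) CPM, a ratio of 1.46 (1.36 to 1.56), and for Ccrl2 1421 (1371 to 1472) and 691 (652 to 732) CPM, a ratio of 1.04 (0.94 to 1.14). Ccr1 was nearly level between them, at 1424 (1374 to 1475) and 1284 (1230.2 to 1339) CPM. The clusters were formed from other genes of the same cells, so these differences are a description.

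**Figure D2:**
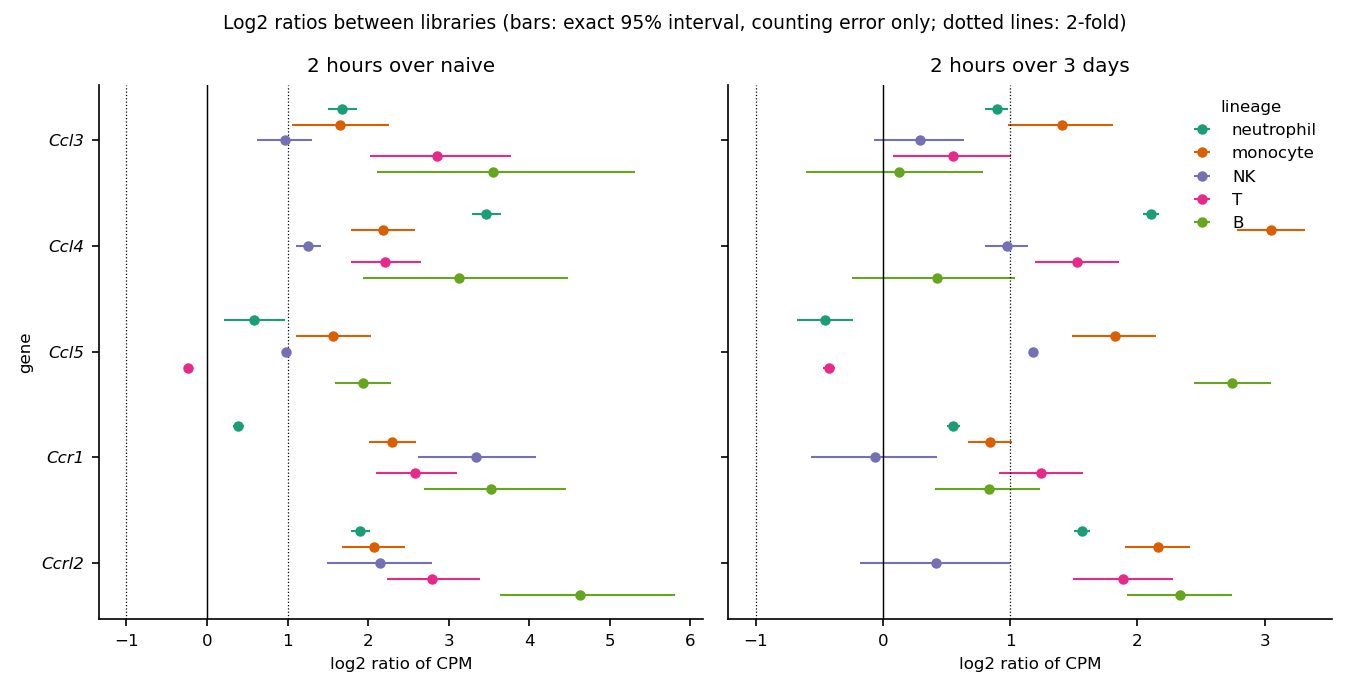
Log2 ratios of CPM, 2 hours over naive (left) and 2 hours over 3 days (right), for each gene (y axis) and lineage (color), with exact 95% intervals for counting error and dotted lines at 2-fold. Ccl4 in neutrophil-like cells sat at 3.47 against naive lungs. Ccl5 was above 0 in NK-like cells and below 0 in T-like cells, where its sign in both comparisons changed under other settings.

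Monocyte-like cells differed in the same direction at lower levels, with 5 of the 5 genes at least 2-fold higher at 2 hours than in naive lungs (5.24% of all genes tested) and 4 of the 5, all but Ccr1, at least 2-fold higher than at 3 days (3.50%). Ccl5 was among them through few cells, since 1 cell held 54 of its 90 UMIs at 2 hours, and its log2 ratio to naive lungs was 1.56 in all monocyte-like cells, -1.30 at a cluster resolution of 1.2 and -1.28 in nonclassical monocyte-like cells alone. Ccl4 was at 48.6 (38.8 to 60.1) CPM in naive lungs, 220.4 (188 to 257) at 2 hours and 26.6 (24.2 to 29.1) at 3 days, and Ccl3 at 24.6 (17.8 to 33.1), 77.1 (58.4 to 99.8) and 29.1 (26.6 to 31.7) CPM. The 2-hour values lay above both others for each ligand, although the log2 ratio of Ccl3 to naive lungs was -0.028 with no cell filter and cells called one by one. Defining neutrophil markers moved with them, at 962, 5399.7 and 1729 CPM in the monocyte-like cells of the 3 libraries, and their part in the result was not tested. Per 1000 UMIs of those markers, Ccl4 stood at 40.8 (34.7 to 47.7) UMIs in monocyte-like cells at 2 hours and 26.1 (25.4 to 26.9) in neutrophil-like cells. The mix of monocytes differed too, since nearly all naive monocyte-like cells fell in a nonclassical cluster and most 3-day ones in a classical cluster. That naive cluster had the classical monocyte markers Vcan and F13a1 among its leading genes.

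Within nonclassical monocyte-like cells, 139 in naive lungs, 317 at 2 hours and 481 at 3 days, Ccl4 was at 48.7, 326 and 59.2 CPM. The log2 ratio of 2 hours to naive was 2.74 (2.35 to 3.14) for Ccl4 and 2.13 (1.52 to 2.75) for Ccl3. In classical monocyte-like cells Ccl4 was at 33.7 CPM at 2 hours and 16.3 at 3 days, and the ratio of 1.05 (-0.10 to 2.00) rested on 9 UMIs at 2 hours. At the cluster resolution of 0.4 only 3 monocyte-like cells were named at 2 hours and no comparison was possible.

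Macrophage-like cells were of different kinds in the naive and 3-day libraries. The graft cells were sorted for the recipient allele, which leaves out resident cells of the donor lung, while the naive lungs were not transplanted. Differences of kind and level between these cells therefore cannot be told apart from the sort. The naive ones were led by genes of alveolar macrophages, and the 3-day ones fell in a cluster led by Saa3 and Arg1 and in one led by C1q genes. Of the 5 genes, Ccl4 and Ccrl2 were at least 2-fold higher at 3 days (7.00% of all genes tested). Ccl4 was at 7.88 (4.50 to 12.8) CPM in naive lungs and 349 (337 to 361) at 3 days, a log2 ratio of 5.47 (4.77 to 6.28), and the naive value rested on 16 UMIs. Neutrophil markers in the same cells stood at 143 and 1342 CPM, and their part in the result was not tested. Ccl3 differed less, at 84.7 (72.5 to 98.4) and 154 (146 to 162) CPM. The median log2 ratio of genes with at least 20 UMIs in each sum was -0.32 in this comparison. Within the 3-day library, the Saa3 and Arg1 cluster stood at 425 (409.9 to 441) CPM of Ccl4 and the C1q-led cluster at 154 (139 to 169).

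The balance of the neighboring genes Ccl3 and Ccl4 differed between cell types. In naive alveolar macrophage-like cells, 158 Ccl3 UMIs stood against 8 Ccl4 UMIs, a ratio of 19.8 (9.78 to 46.5). In NK-like cells the ratio was 0.243 (0.213 to 0.278) in naive lungs, 0.199 (0.158 to 0.247) at 2 hours and 0.319 (0.273 to 0.373) at 3 days. In neutrophil-like cells it was 1.18 (1.0 to 1.40), 0.341 (0.323 to 0.361) and 0.791 (0.751 to 0.833), lowest at 2 hours. The naive value depended on the 9 cells outside the main cluster, which held 89 of 306 Ccl3 UMIs and 24 of 259 Ccl4 UMIs. Without them Ccl3 was at 100 CPM and Ccl4 at 108. With the Tnf and Siglecf cluster counted, the 3-day levels were 510.4 and 503.4 CPM. No order is therefore given between the naive and 3-day ratios. A lowest value at 2 hours was not limited to neutrophil-like or NK-like cells. NK-like and monocyte-like cells were highest at 3 days. Basophil and mast cell-like cells stood at 0.713, 0.331 and 0.572, and monocyte-like cells at 0.506, 0.35 and 1.09. T-like cells, at 0.242, 0.377 and 0.743, were lowest in naive lungs. The naive and 2-hour intervals overlapped in NK-like, monocyte-like and T-like cells. In the Tnf and Siglecf cluster of the 3-day library the ratio was 1.29 (1.22 to 1.36). A ratio of UMIs of 2 genes compares cells of a library, and says nothing of their absolute levels, since capture can differ between genes. Labels and methods name different kits, so differences of the ratio between libraries cannot be told apart from differences in capture. At 500 UMIs per cell, 217 neutrophil-like cells of the 2-hour library carried both, which is 31.1% of those with Ccl4, while 13.8% of all neutrophil-like cells had Ccl3.

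**Figure D3:**
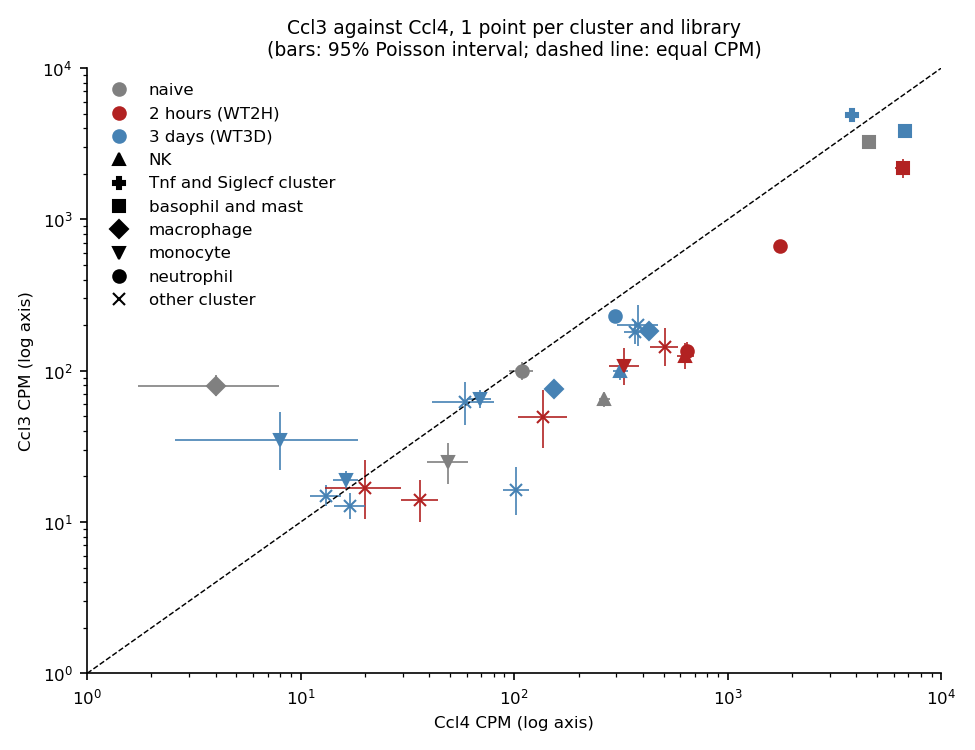
Ccl3 CPM (y axis, log) against Ccl4 CPM (x axis, log), 1 point per cluster and library for clusters with at least 20 Ccl3 and 5 Ccl4 UMIs, with 95% Poisson intervals and a dashed line of equal CPM. Alveolar macrophage-like cells (gray diamond) lie far to the Ccl3 side at 79.6 and 4.03 CPM, NK-like cells (triangles) to the Ccl4 side, and basophil-like cells (squares) and the Tnf and Siglecf cluster (plus sign) at the top right.

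A small basophil and mast cell-like cluster carried both ligands at the highest Ccl4 levels of all clusters in every library. It held 20, 68 and 112 cells, and the basophil protease gene Mcpt8 stood at 896, 651 and 1521 CPM there against 0.245 in all other cells. Ccl4 was at 4574 (4247 to 4919), 6575 (6053 to 7129) and 6737 (6546 to 6934) CPM, and Ccl3 at 3262 (2987 to 3555), 2177 (1881 to 2505) and 3851 (3707 to 4000.3). At 2 hours Ccl3 was lowest, while Ccl4 was above its naive level. At 500 UMIs per cell, 70.0% (45.7 to 88.1), 70.6% (58.3 to 81.0) and 69.6% (60.2 to 78.0) of these cells had a Ccl4 UMI, and the intervals overlapped. Because the naive group had only 20 cells, no ratio between libraries is given.

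Which cells held a library's Ccl3 and Ccl4 UMIs differed between libraries. In naive lungs the basophil and mast cell-like cells were 0.826% of kept cells and held 38.0% (35.4 to 40.7) of Ccl3 UMIs and 31.4% of Ccl4 UMIs, and NK-like cells held 49.0% (46.9 to 51.0) of Ccl4 UMIs. At 2 hours neutrophil-like cells, 42.7% of kept cells, held 77.5% (75.7 to 79.3) and 74.3% (73.2 to 75.4) of them. At 3 days no group held most of either. Neutrophil-like cells held 22.6% of Ccl3 UMIs, the Tnf and Siglecf cluster 29.8% with 1.85% of kept cells, basophil and mast cell-like cells 23.8% and macrophage-like cells 12.7%. These shares also reflect the sort and the mix of cells.

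**Figure D4:**
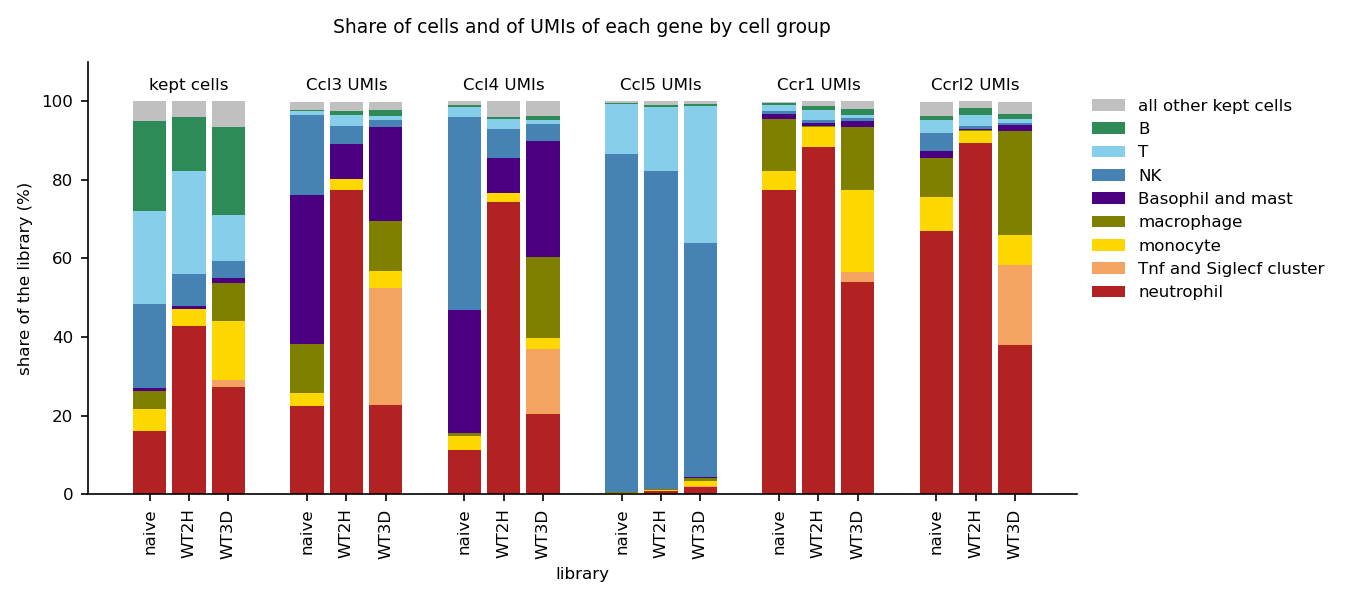
Share of kept cells (leftmost 3 bars) and of each gene's UMIs (% of the library, y axis) by cell group in the naive, WT2H and WT3D libraries. Neutrophil-like cells (red) held 74.3% of Ccl4 UMIs at 2 hours against 11.2% in naive lungs and 20.4% at 3 days, and NK-like and T-like cells (steel blue and sky blue) held nearly all Ccl5 UMIs.

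Ccl5 UMIs lay mostly in NK-like and T-like cells in every library. NK-like cells held 86.2%, 81.0% and 59.6% of all Ccl5 UMIs in naive lungs, at 2 hours and at 3 days, and T-like cells 12.7%, 16.3% and 34.8%. With cells called one by one only 210 cells were named NK-like at 2 hours, and they held 20.1%. The level in NK-like cells was 14173 (14060.5 to 14286) CPM in naive lungs, 27909 (27539 to 28282) at 2 hours and 12325 (12175 to 12476) at 3 days. The log2 ratio was 0.98 (0.95 to 1.0) at 2 hours over naive lungs and 1.18 (1.15 to 1.21) over 3 days, against 0.52 and 0.22 for the median gene with short introns. Under the alternative settings these ratios ran from 0.83 to 1.11 and from 1.12 to 1.33. Nearly all NK-like cells carried Ccl5, with 95.7% (93.6 to 97.3), 99.4% (98.6 to 99.8) and 93.9% (90.8 to 96.2) of them positive at 500 UMIs per cell against 2.36%, 1.56% and 0.860% of B-like cells. The top 5% of NK-like cells held 15.2%, 13.4% and 19.3% of the UMIs, a much flatter spread than that of Ccl4 in neutrophil-like cells.

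In T-like cells the order of the libraries was not the same. Their Ccl5 level was 1528 (1497 to 1560.3) CPM in naive lungs, 1294 (1256 to 1333) at 2 hours and 1736 (1709 to 1764) at 3 days, so the 2-hour level was the lowest, with a log2 ratio of -0.24 (-0.29 to -0.19) to naive. Over the alternative settings this ratio ran from -3.27 to 1.47, the lowest with the 5 genes left in the clustering and the highest without cells carrying markers of another lineage, so no direction is given. Cells with a UMI of Cd8a or Cd8b1, the CD8 chains, and none of Cd4 had more Ccl5 than those with Cd4 alone in each library. The levels were 1866 (1814 to 1918) against 863 (821 to 906) CPM in naive lungs, 2892 (2769.5 to 3019) against 60.4 (30.1 to 108) at 2 hours and 2420.4 (2375 to 2467) against 616 (585 to 648) at 3 days. At 2 hours, 2061 of 2679 T-like cells had a UMI of none of these genes, so the split covers few cells there. Those 2061 cells held 2282 of the 4381 Ccl5 UMIs, and the Cd4 level rested on 11 UMIs. Cells with none of these genes stood at 2056 (1972 to 2142), 921 (884 to 960) and 1780 (1715.5 to 1847) CPM in the 3 libraries. In naive lungs they were thus above the cells with CD8 chains.

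NK-like cells also carried Ccl4 and Ccl3. Of the 5 genes, 3, Ccl4, Ccr1 and Ccrl2, were at least 2-fold higher at 2 hours than in naive lungs (4.19% of all genes tested), 1, Ccl5, was at least 2-fold higher than at 3 days (3.27%), and 2, Ccr1 and Ccrl2, were at least 2-fold higher at 3 days than in naive lungs (2.07%). Ccl4 was at 264 (249 to 280.4), 633 (578 to 691) and 323 (299 to 348) CPM, a log2 ratio of 1.26 (1.10 to 1.41) for 2 hours to naive. The share of NK-like cells with Ccl4 at 500 UMIs was 9.69% (7.28 to 12.6), 12.9% (10.7 to 15.4) and 12.5% (9.17 to 16.4), and these intervals overlapped. Ccl3 was at 64.4 (57.0 to 72.4), 126 (102 to 153) and 103 (89.8 to 118) CPM. The receptors were low, with Ccr1 at 6.08 (3.98 to 8.92), 61.6 (45.4 to 81.7) and 64.2 (53.8 to 76.1) CPM and Ccrl2 at 11.0 (8.08 to 14.6), 48.8 (34.5 to 67.0) and 36.4 (28.7 to 45.6). Neutrophil markers stood at 351, 1471 and 2796 CPM in these cells, and their part in the receptor levels was not tested.

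**Figure D5:**
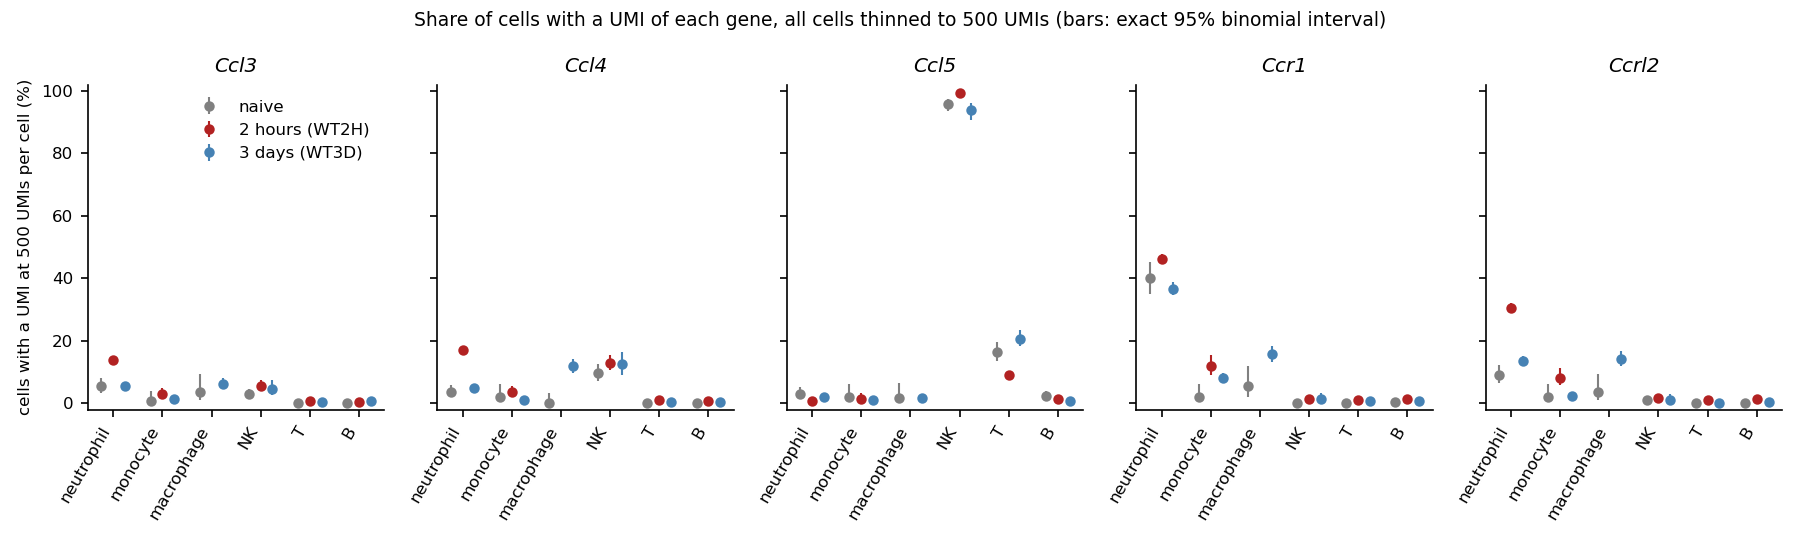
Share of cells with at least 1 UMI of each gene (%, y axis) by lineage after every cell was thinned to 500 UMIs, in the naive (gray), 2-hour (red) and 3-day (blue) libraries, with exact 95% binomial intervals. Ccl5 was found in 93.9% to 99.4% of NK-like cells, while Ccl3 and Ccl4 were found in at most 17.2% of the cells of any of the 6 lineages.

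Ccr1 was the most evenly spread of the 5 genes among neutrophil-like cells. Its ratio to naive lungs was small there. It was at 1041 (999 to 1084) CPM in naive lungs, 1363 (1326 to 1400.4) at 2 hours and 928 (910.5 to 947) at 3 days. The log2 ratio of 2 hours to naive was 0.39 (0.32 to 0.46), and it ran from 0.25 to 1.25 over the alternative settings. Against 3 days it was 0.55 (0.51 to 0.60), and neither reached 2-fold. At 500 UMIs per cell, 40.1% (35.1 to 45.1), 46.2% (44.6 to 47.7) and 36.6% (34.6 to 38.7) of neutrophil-like cells had a Ccr1 UMI, and the top 5% held 15.6%, 21.4% and 15.1% of the UMIs. Neutrophil-like cells held 77.4%, 88.4% and 53.9% of each library's Ccr1 UMIs.

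In monocyte-like cells Ccr1 was at 82.9 (70.0 to 97.6), 408 (364 to 457) and 228 (221 to 235) CPM, and it was the only 1 of the 5 genes at least 2-fold higher at 3 days than in naive lungs there (0.845% of all genes tested). The kinds of monocyte differed in it. In nonclassical monocyte-like cells Ccr1 was at 83.0, 329.9 and 50.8 CPM, lower at 3 days than in naive lungs by a log2 ratio of -0.71 (-1.02 to -0.39). Classical monocyte-like cells stood at 547 CPM at 2 hours and 283 at 3 days. The naive nonclassical cluster had classical markers among its leading genes, as given above, and the part of classical cells in the ratio was not tested. In macrophage-like cells Ccr1 was at 198 (179.6 to 219) CPM in naive lungs and 322 (311 to 334) at 3 days.

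Ccrl2 differed more than Ccr1. In neutrophil-like cells it was at 296 (274 to 319) CPM in naive lungs, 1104 (1071 to 1137) at 2 hours and 374 (362 to 385) at 3 days. At 2 hours over naive lungs the log2 ratio was 1.90 (1.78 to 2.02), a 3.73-fold difference, and over 3 days it was 1.56 (1.5 to 1.62). Over the alternative settings they ran from 1.0 to 2.80 and from 0.97 to 2.15. The share of cells with a UMI followed the level, at 9.04% (6.38 to 12.4), 30.6% (29.2 to 32.1) and 13.5% (12.1 to 15.0) at 500 UMIs per cell. In macrophage-like cells Ccrl2 was at 47.8 (38.8 to 58.3) CPM in naive lungs and 304 (293 to 316) at 3 days, a log2 ratio of 2.67 (2.38 to 2.98). In monocyte-like cells it was at 50.3 (40.4 to 62.0), 211 (179 to 247) and 47.1 (44.0 to 50.5) CPM, highest at 2 hours.

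In T-like and B-like cells Ccl3, Ccl4 and the receptors were low, although the 2-fold rule counted many of them. Of the 5 genes, 4, all but Ccl5, were at least 2-fold higher in T-like cells at 2 hours than in naive lungs (3.58% of all genes tested), and 5 in B-like cells (4.69%). Against 3 days, 2 were higher in T-like cells, Ccl4 and Ccrl2 (3.11%), and 2 in B-like cells, Ccl5 and Ccrl2 (3.06%). Ccr1 in B-like cells was at 4.30 (2.41 to 7.1), 49.7 (38.1 to 63.7) and 27.9 (24.8 to 31.3) CPM, and neutrophil markers moved with it as given above. With no cell filter and cells called one by one, its log2 ratio at 2 hours over naive lungs was -0.051. Per 1000 UMIs of neutrophil markers at 2 hours, Ccr1 stood at 24.4 (18.6 to 31.4) UMIs in B-like cells, 29.2 (24.7 to 34.3) in T-like cells, 41.9 (30.7 to 55.9) in NK-like cells and 27.9 (27.2 to 28.7) in neutrophil-like cells. Ccrl2 stood at 31.5 (24.9 to 39.3) in B-like, 25.4 (21.2 to 30.2) in T-like and 22.6 (21.9 to 23.3) in neutrophil-like cells at 2 hours.

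The Ccr1 interval of B-like and of T-like cells at 2 hours overlapped that of neutrophil-like cells. In naive lungs that of B-like cells did not, at 20.1 (11.2 to 33.4) UMIs against 9.28 (8.91 to 9.67) in neutrophil-like cells. That of naive T-like cells did overlap, at 11.1 (8.06 to 14.9). At 3 days neither overlapped, with 26.9 (23.9 to 30.2) in B-like and 16.8 (14.3 to 19.6) in T-like against 6.30 (6.18 to 6.42) in neutrophil-like cells. The part of free RNA in these levels was not tested. Ccl4 in T-like cells at 2 hours was somewhat above the neutrophil-like ratio, at 31.9 (27.2 to 37.2) against 26.1 (25.4 to 26.9). Ccl5 in the other lineages rested on few cells in some sums and was thinly spread in others. In B-like cells at 2 hours, 31 of 1404 cells held its 163 UMIs, and those of monocyte-like cells are given above. In naive B-like cells its 119 UMIs lay in 105 of 552 cells, with at most 3 in 1 cell. In macrophage-like cells Ccl5 was at 87.2 (74.8 to 101) CPM in naive lungs, where 1 cell held 97 of 177 UMIs, and 36.2 (32.4 to 40.3) at 3 days, at least 2-fold lower (as were 13.8% of all genes tested), but thinning to 500 UMIs brought the log2 ratio to 0.005. In neutrophil-like cells it was at 37.0 (29.4 to 45.8), 55.3 (48.1 to 63.2) and 75.5 (70.5 to 80.9) CPM, and its ratio at 2 hours over naive lungs ran from -1.23 to 1.83 over the alternative settings.

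Of 39 related genes, 22 reached 100 CPM in some lineage and library. In neutrophil-like cells at 2 hours against naive lungs, 0 of the 3 other CC chemokines tested out of 12 listed were at least 2-fold higher or lower. Ccl6, a chemokine of myeloid cells, was at 1940.5, 2391 and 1968 CPM in naive lungs, at 2 hours and at 3 days, with a log2 ratio of 0.30 (0.25 to 0.35) for 2 hours to naive. Macrophage-like cells at 3 days differed from naive ones in 4 of the 8 other CC chemokines tested, all higher (7.00% of all genes). Ccl2, the monocyte attractant, was at 76.8 CPM in naive lungs and 489.8 at 3 days. Its neighbor Ccl7 was at 15.8 and 239.9 CPM, and Ccl9 at 48.8 and 1584. Ccl24, whose product draws eosinophils, was at 8.38 and 472 CPM. Ccl24 was also among the leading genes of the Saa3 and Arg1 cluster.

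Ccr2, the CCL2 receptor, was at 385, 235 and 753 CPM in monocyte-like cells, and at 8.38 and 507 CPM in naive and 3-day macrophage-like cells. Of the 3 chemerin axis genes, none reached 100 CPM in any lineage.

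Genes of receptor signaling and desensitization were mixed in neutrophil-like cells, with 2 of 9 tested at least 2-fold higher and 2 at least 2-fold lower at 2 hours than in naive lungs, against 3.99% higher and 12.5% lower of all genes tested. Arrb2, a β-arrestin that turns off and internalizes receptors, was at 73.5, 249 and 109 CPM, and Rgs1, a regulator that speeds G protein inactivation, at 9.80, 92.4 and 54.8 CPM. In NK-like cells Rgs1 was at 161, 706 and 265 CPM, again highest at 2 hours. The lower genes were Rgs2, a related regulator, at 345, 159 and 658 CPM, and Gnai3, a Gi subunit, at 298, 128 and 234 CPM. The Gi subunit Gnai2 was at 875, 803 and 1245 CPM, the β subunit Gnb1 at 311, 153 and 139.9 CPM, and the receptor kinases Grk2 and Grk6 at 297, 169 and 335 CPM and 41.4, 36.1 and 80.2 CPM. These 4 were under the 2-fold rule at 2 hours against naive lungs. The lower level of Gnai3 at 2 hours was not limited to neutrophil-like cells. In naive lungs and at 2 hours it was at 121 and 64.9 CPM in B-like cells and 131 and 62.3 in T-like cells. In NK-like cells it was at 161 and 75.8 CPM, and in monocyte-like cells at 128 and 78.4. The part of the counting of introns in the ratios of these genes was not tested.

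Of 5 genes tied to the induction and decay of Ccl3 and Ccl4 RNA, 3 were at least 2-fold higher and 0 lower at 2 hours than in naive lungs in neutrophil-like cells, against the same 3.99% and 12.5% of all genes. Zfp36, which encodes tristetraprolin, a protein that speeds the decay of cytokine RNAs, was at 469.8, 1978 and 821 CPM, a log2 ratio of 2.07 (1.98 to 2.17). The NF-κB inhibitor genes Nfkbia and Tnfaip3 were at 980.5, 2048 and 1373 CPM and 204, 460.2 and 293 CPM. Zc3h12a, an RNA-cleaving regulator, was at 241, 438 and 189 CPM. Tnf stood apart from these, at 83.7, 82.0 and 112 CPM, with a log2 ratio of -0.030 (-0.29 to 0.24) for 2 hours to naive, and was at 3234 CPM in the Tnf and Siglecf cluster. Zfp36 was higher at 2 hours than in naive lungs in other lineages too, at 388 against 151 CPM in B-like cells and 347 against 89.5 in T-like cells. In NK-like cells it was at 222 against 79.6 CPM, and in monocyte-like cells at 1099 against 701. For Ccl5 in NK-like cells, Klf13, a factor that binds the Ccl5 promoter in T cells, was at 437, 602 and 370.1 CPM, and Srgn, the core protein of secretory granules, at 829, 739.5 and 1066 CPM.

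Likeness of pattern was measured as Pearson's r of log2(CPM + 10) over the 17 sums of lineage and library with at least 50 cells, among 11214 genes. The sums share libraries, depth and free RNA, so r is a description. Ccl3 was most like Arrb2 (0.93), Ppp1r18 (0.91) and Slc3a2 (0.91), and Ccl4 most like Vegfa (0.90), Gpr65 (0.88) and Ccl3 (0.86), of which Vegfa is a growth factor for vessels. Ccl5 was most like Cd7 (0.98), Il2rb (0.98) and Klrc1 (0.97), which are genes of NK and T cells. Ccr1 followed C5ar1 (0.98), Trem1 (0.98) and Nlrp3 (0.98), the first of them the receptor for complement C5a, and Ccrl2 followed Lilr4b (0.97), Slc7a11 (0.97) and Basp1 (0.96). Between the 5 genes, r was 0.94 for Ccr1 and Ccrl2, 0.86 for Ccl3 and Ccl4 and 0.84 for Ccl3 and Ccrl2. Ccl5 stood apart, with r between -0.47 with Ccr1 and 0.29 with Ccl4.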

How the data were processed

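Single-cell RNA-Seq was analyzed in 3 libraries, 1 per condition, each of cells pooled from 2 mice. The deposited matrices held unnormalized UMI counts, which the authors made with Cell Ranger 7.1.0 (naive) and 6.0.0 (both transplant libraries) per the file headers. The submitters' processing notes name mm10 and Cell Ranger 6. Whether introns were counted is not stated, and labels and methods name different kits. Barcodes with over 200 but below 6000 genes, less than 10% of mitochondrial UMIs and less than 25000 UMIs were retained, after the study's methods. Seurat 5.3.0 (SCTransform, 30 principal components, Louvain resolution 0.8) clustered all libraries together without integration and without the 5 genes. Cells with at least 1% of their UMIs on Jchain were set apart first. A cluster was named where the median log2 ratio of a marker list and at least 3 of its genes exceeded 1. It stayed unnamed where its 10 leading genes held more markers of another class than of its own. Shallow clusters with no marker of their own among those genes also stayed unnamed. Scrublet (scanpy 1.11.5) called 40, 403 and 277 doublets, which an alternative removed. UMIs were summed over lineages of at least 50 cells. The 2-fold rule took genes with at least 20 UMIs over both sums. The ratio and thinning steps were tested on simulated data. Named besides the 5 genes were listed related genes reaching 100 CPM and, for each of the 5, the 3 genes most like it. The 5 genes, lists and markers were chosen with earlier results of these data known. 1 related gene is not reported here. Alternatives changed cell calling, filters, clustering, thinning, denominator and scaling.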

Additional observations from a re-analysis of the deposited data

Results flagged for a closer look

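The following ratios pointed in opposite directions in 2 lineages of the same libraries, beyond counting error, under the settings of the report. With 1 library per condition the differences were not tested. For Ccl4, 3 days against naive lungs gave a log2 ratio of 5.47 in macrophage-like cells and -0.87 in monocyte-like cells, a difference of 6.34. For Ccl5, 2 hours against naive lungs gave a log2 ratio of 1.94 in B-like cells and -0.24 in T-like cells, a difference of 2.18. For Ccl5, 3 days against naive lungs gave a log2 ratio of 1.03 in neutrophil-like cells and -1.27 in macrophage-like cells, a difference of 2.30. For Ccl5, 2 hours against 3 days gave a log2 ratio of 2.75 in B-like cells and -0.45 in neutrophil-like cells, a difference of 3.20. For Ccr1, 3 days against naive lungs gave a log2 ratio of 3.40 in NK-like cells and -0.17 in neutrophil-like cells, a difference of 3.56. The 3-day and naive macrophage-like cells were of different kinds, and so was the mix of monocytes, with a Ccl4 ratio at 3 days over naive lungs of 0.28 in nonclassical monocyte-like cells alone. Some of the Ccl5 values outside NK-like and T-like cells rested on few cells, and the opposite directions for Ccl5 did not hold under all settings. Its ratio in neutrophil-like cells at 3 days over naive lungs was -1.21 without called doublets and -1.27 without cells carrying markers of another lineage, and at 2 hours over 3 days it was 0.57 and 0.58, and 0.83 with cells called one by one. At 2 hours over naive lungs the T-like ratio ran from -3.27 to 1.47 and the B-like ratio turned to -0.044 with the 5 genes left in the clustering. The neutrophil-like Ccr1 ratio at 3 days over naive lungs was 0.031 with cells called one by one and 0.53 with no cell filter as well. The NK-like Ccr1 level, 6.08 (3.98 to 8.92) CPM in naive lungs and 64.2 (53.8 to 76.1) at 3 days, moved with neutrophil markers in the same cells, at 351 and 2796 CPM, and their part in the result was not tested.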

How the results depend on the processing

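Each condition was 1 library, so animal, strain, sort, kit and sequencing differences cannot be told apart from reperfusion, and the shallow 2-hour cells limit what single cells show. Of 809 alternative values of 70 log2 ratios, 744 kept the sign and 65 did not, and 46 alternatives gave no value because a lineage had under 50 cells or a gene had no UMI left in a sum. No paired analysis was possible because the result comes from no test. The cause of the differences below was not tested. Log2 ratios in neutrophil-like cells, and for Ccl5 in NK-like cells unless named, that left their counting interval were as follows. With cells called one by one, 2 hours to naive was 1.01 for Ccl5, 0.67 for Ccr1 and 2.18 for Ccrl2 and 2 hours to 3 days was -0.37 for Ccl3, 1.01 for Ccl4, 0.64 for Ccr1 and 1.14 for Ccrl2. Without called doublets, 2 hours to naive was 1.09 for Ccl5. Without cells carrying markers of another lineage, 2 hours to naive was 0.92 for Ccl5, 2.33 for Ccl3 and 4.56 for Ccl4 and 2 hours to 3 days was 1.06 for Ccl3 and 0.48 for Ccr1. That setting fell unequally on the libraries. In naive lungs, at 2 hours and at 3 days it removed 89 of 387, 122 of 4389 and 559 of 2260 neutrophil-like cells. For T-like cells it removed 267 of 577, 333 of 2679 and 876 of 988, and for NK-like cells 393 of 516, 157 of 852 and 330 of 345. As a mean over cells of counts per 10000, 2 hours to naive was 1.10 for Ccl5 and 3.27 for Ccl4 and 2 hours to 3 days was 1.29 for Ccl5, 0.75 for Ccl3 and 1.41 for Ccrl2. After thinning to 500 UMIs, 2 hours to naive was 1.11 for Ccl5 and 2 hours to 3 days was 1.33 for Ccl5, 0.72 for Ccl3, 0.48 for Ccr1 and 1.45 for Ccrl2 and 3 days to naive was 0.005 for Ccl5 in macrophage-like cells. Without ribosomal, mitochondrial, immunoglobulin and hemoglobin genes in the denominator, 2 hours to naive was 1.02 for Ccl5 and 2 hours to 3 days was 1.15 for Ccl5. Scaled by the median ratio of genes, 2 hours to naive was 1.97 for Ccl3, 3.76 for Ccl4, 0.68 for Ccr1 and 2.19 for Ccrl2 and 2 hours to 3 days was 1.24 for Ccl5, 1.08 for Ccl3, 2.30 for Ccl4, 0.74 for Ccr1 and 1.75 for Ccrl2. At resolution 0.4, 2 hours to 3 days was -0.23 for Ccl3, 1.35 for Ccl4 and 1.03 for Ccrl2. At resolution 1.2, 2 hours to naive was -1.30 for Ccl5 in monocyte-like cells and 2 hours to 3 days was 2.28 for Ccl3, 3.05 for Ccl4, 2.15 for Ccrl2 and -0.57 for Ccl5 in monocyte-like cells. With the 5 genes left in the clustering, 2 hours to naive was -0.044 for Ccl5 in B-like cells, 0.83 for Ccl5, -0.37 for Ccl3, 1.12 for Ccl4, 0.25 for Ccr1 and 1.0 for Ccrl2 and 2 hours to 3 days was 1.12 for Ccl5, 0.10 for Ccl3, 0.56 for Ccl4, 0.38 for Ccr1 and 0.97 for Ccrl2. With no cell filter and cells called one by one, 2 hours to naive was -0.051 for Ccr1 in B-like cells, 1.06 for Ccl5, 1.35 for Ccl3, 4.31 for Ccl4, 1.25 for Ccr1, 2.80 for Ccrl2 and -0.028 for Ccl3 in monocyte-like cells and 2 hours to 3 days was 1.21 for Ccl5, -0.26 for Ccl3, 1.11 for Ccl4, 0.72 for Ccr1 and 1.25 for Ccrl2 and 3 days to naive was 0.61 for Ccl5 in macrophage-like cells. With the Tnf and Siglecf cluster counted as neutrophil-like (added after seeing the data), 2 hours to 3 days was -0.23 for Ccl3, 1.34 for Ccl4 and 1.03 for Ccrl2. Without cells outside the main clusters (added after seeing the data), 2 hours to naive was 2.12 for Ccl3. The share of genes at least 2-fold higher in neutrophil-like cells at 2 hours than in naive lungs was 10.9% with a pseudocount of 1 and 2.02% with no minimum on UMIs. The share of 2-hour neutrophil-like cells with a UMI, not thinned and thinned to 1000 UMIs, was 18.6% and 24.8% for Ccl3, 19.9% and 26.6% for Ccl4, 61.0% and 67.5% for Ccr1 and 40.0% and 47.3% for Ccrl2. Thinning to 1000 UMIs left out 3360 of the 4389 cells, so its shares describe only the 1029 deeper ones. With cells called one by one, neutrophil-like cells held 79.7% of Ccl4 UMIs at 2 hours and NK-like cells 20.1% of Ccl5 UMIs.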
